A study of Mus musculus with 32 samples.

Results

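Pancreatic acinar cells make digestive enzymes and release them into the gut, and the tail of the pancreas lies next to the spleen. A spleen sample that reads high for genes of this program therefore raises the question whether pancreas was taken along with it, and the ratios of 7 such genes were examined here in spleen and liver of cloned mice. The genes were Cpa1, Ctrb1, Cela1, Pnlip, Pnliprp1, Cel and Clps. They were chosen by their spleen ratios set against the liver ratios of the same clones, so spleen levels, liver levels and the differences between the organs are given below as a description and without a test. Of the 7 genes, 4 were measured (Cpa1, Ctrb1, Pnliprp1 and Clps), among 9026 named genes in all, on 5 of 12760 named probes. The ratios of Cel, Pnlip and Cela1, which had no named probe in the table used, were not analysed here.

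The enzymes fall into proteases, lipases and a lipase cofactor. Cpa1 encodes carboxypeptidase A1, which removes amino acids from the carboxyl end of peptides, Ctrb1 encodes chymotrypsinogen B, which becomes an active protease in the gut, and Cela1 encodes an elastase of the same protease family. Pnlip is the pancreatic lipase that breaks down dietary fat, Pnliprp1 is its relative with little known lipase activity of its own, Cel is the bile salt-dependent lipase, and Clps is colipase, the small protein that lets the lipase work on fat droplets coated with bile salts. Acinar cells switch these genes on together through a shared set of transcription factors, among them the complex named PTF1.

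The study measured liver and spleen RNA of mice cloned by nuclear transfer on 2-colour cDNA arrays. There were 4 groups of 4 male 129/SvJ mice aged 18 to 19 weeks, which were spleens and livers of clones labelled Dll1 and spleens and livers of clones labelled wt, and both organs came from the same mice. Dll1 encodes a ligand of Notch receptors. The allele, and how many donor cell lines the clones came from, were not stated. The other channel of each array held pooled RNA from male 129/SvJ mice of the same age, which were Dll1 heterozygotes for the Dll1 clones and wild type for the wt clones. The labels' protocol speaks of 6 animals per pool while 4 mouse identifiers are listed. A pair of arrays with exchanged dyes was run for every mouse and organ, 32 arrays in all. Values are log2 ratios, read as clone over pool, where 1 stands for a doubling. They set each clone against its own pool, so they give neither the amount of a transcript nor whether a pool also held pancreas. In whole tissue, fewer cells of a type and less RNA per cell cannot be told apart either.

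Some arrays stood apart. Among 20794 probes, the spleen arrays had 248 to 2859 missing values each and the liver arrays 59 to 230. Within the Dll1 spleens, mice 2 and 3 had the most missing values over both arrays, 2329 and 3829, against 1959 in mouse 1 and 833 in mouse 4. Mouse 1 was close to mouse 2, and its Cy3 array had 1594 missing values against 1574 in the Cy5 array of mouse 2. Within the wt spleens, mouse 3 had 1794 against 807 to 907 in the others, and its ratios also had the widest spread. Over all features, ratios varied less between mice in liver than in spleen. The median SD was 0.087 in wt liver and 0.11 in Dll1 liver, against 0.28 in wt spleen and 0.46 in Dll1 spleen. The direction of the swapped arrays is not settled. Over all probes, the mean ratios of arrays with the clone in Cy5 correlated with those of arrays with it in Cy3 at -0.30 in Dll1 spleen, -0.38 in wt spleen, -0.26 in Dll1 liver and -0.70 in wt liver. Ratios were taken as already turned to one direction, and the values with the Cy3 arrays turned the other way are given beside the main results.

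Cpa1 was the member that read high in every wt spleen. Its log2 ratio was 0.73, 0.60, 0.86 and 0.75 in wt mice 1 to 4, a mean of 0.73 ± 0.10 (SD, n = 4). All 8 wt spleen arrays lay above 0, from 0.46 to 1.07, in both dye orientations, which 0.745% of probes did. In the Dll1 spleens it was 0.50, -0.15, -0.38 and 0.48, a mean of 0.11 ± 0.45 (SD, n = 4). Mice 1 and 4 were thus above the pool and mice 2 and 3 below it. Mice 2 and 3 had the most missing values, but mouse 1 was close to mouse 2 in this. Of all features in Dll1 spleen, 51.6% had an SD this large or larger. In liver the ratio stayed near 0, at -0.092 to -0.030 in the Dll1 mice and -0.068 to 0.26 in the wt mice. Every wt spleen lay above every wt liver, as 4.61% of features did, and this is the contrast by which the gene was chosen.

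With the Cy3 arrays turned, the mean Cpa1 ratio was 0.088 in wt spleen and -0.096 in Dll1 spleen, so the height in wt spleen depends on the direction of the swapped arrays. Cpa1 was also the only measured member whose wt spleens all lay above all Dll1 spleens, 0.60 to 0.86 against at most 0.50. Such a gap was found in 1.67% of features. The difference between the cohorts, Dll1 minus wt, was -0.62 (SE 0.24) and did not pass the test across all features (limma with Benjamini-Hochberg adjustment, unadjusted p = 0.0302, adjusted p = 0.883). The spleen values tested here also entered the choice of the genes. That limit holds for the spleen cohort tests of all members. None of 16956 features passed in this comparison (0%), and 766 fell under 0.05 before adjustment. Turning the Cy3 arrays gave a difference of -0.18 (adjusted p = 0.769).

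Ctrb1 had the largest SD of the 4 genes in each spleen cohort, as deposited. In the wt spleens its log2 ratio was 0.26, -0.54, 2.43 and -0.42, a mean of 0.43 ± 1.38 (SD, n = 4). Mouse 3 stood alone in this group, at 2.22 with the clone in Cy5 and 2.63 with it in Cy3, and without it the mean was -0.23. An SD this large or larger was found in 2.18% of features in wt spleen, where the median SD was 0.28.

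In the Dll1 spleens Ctrb1 was 1.37, -0.38, -0.21 and 0.97, a mean of 0.44 ± 0.87 (SD, n = 4). There 17.9% of features had an SD this large or larger, and the median SD was 0.46. Mice 1 and 4 were again the high ones, as for Cpa1. Mouse 1 read 0.71 in Cy5 and 2.04 in Cy3, and mouse 4 read 0.80 and 1.14. Mouse 2 was split, at -1.17 and 0.41, and mouse 3 was measured in Cy3 only. In liver no mouse went beyond -0.066 to 0.16, so the 3 spleens with high Ctrb1 had livers near the pool. Ratios varied less in liver over all features too. The cohorts did not differ beyond their spread in spleen, with Dll1 minus wt at 0.006 (SE 0.70, limma adjusted p = 0.999), and the difference was 0.67 without wt mouse 3. With the Cy3 arrays turned, the mean ratio was -0.35 ± 0.46 (SD, n = 4) in Dll1 spleen and -0.22 ± 0.19 in wt spleen, where the SD of Pnliprp1 was then larger, at 0.61.

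Pnliprp1 was read by 2 probes that did not behave alike. On the first probe the wt spleens were at 0.43, 0.16, 0.81 and 0.0595 and the Dll1 spleens at 0.0985, 0.42, 0.37 and -0.30. The 0.81 of wt mouse 3 averages 2.76 in Cy5 and -1.14 in Cy3, which point in opposite directions. On the second probe the wt spleens were at -0.19, -0.73, 1.18 and -0.72 and the Dll1 spleens at 0.32, -0.0505, -0.86 and 0.27. Here wt mouse 3 was high with both dyes, 0.59 in Cy5 and 1.78 in Cy3, and the other 3 wt spleens lay below the pool. As deposited, the second probe carried a dye offset in every group. The mean ratio was -1.03 in Cy5 and 0.87 in Cy3 in Dll1 spleen and -1.05 and 0.82 in wt spleen. In liver it was -0.19 and 0.52 in Dll1 and -0.40 and 0.70 in wt clones. With the Cy3 arrays turned, the same values read as a ratio below 0 in every mouse of every group. The means were then -0.95 in Dll1 spleen, -0.94 in wt spleen, -0.35 in Dll1 liver and -0.55 in wt liver. Averaged over both probes, the gene's cohort difference in spleen was -0.091 (SE 0.31, limma adjusted p = 0.969), or 0.20 without wt mouse 3. With the Cy3 arrays turned it was -0.15 (adjusted p = 0.896). In liver the gene average lay above 0 in 4 of 4 Dll1 mice, from 0.0465 to 0.17, and in 4 of 4 wt mice, from 0.006 to 0.15, as 5.92% and 11.6% of features did. That sign turns with the Cy3 arrays, to below 0 in all 8 livers and means of -0.14 and -0.30.

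Clps stayed close to the pool in spleen. It was 0.14, 0.24, -0.0475 and 0.30 in Dll1 spleens and 0.0555, -0.19, 0.42 and 0.12 in wt spleens, so the groups overlapped. Dll1 mouse 3 and wt mouse 2 were the lowest of their groups and wt mouse 3 the highest of all. The cohort difference was 0.06 (SE 0.19, limma adjusted p = 0.968), 0.17 without wt mouse 3 and -0.07 with the Cy3 arrays turned. Liver did not serve as a quiet background for this probe: the Dll1 livers were at 0.48, -0.051, 0.16 and 0.61, and the wt livers at -0.56, 0.03, -0.15 and 2.52. The value of 2.52 in wt mouse 4 rests on its Cy5 array alone, since the Cy3 array held one of the constants that were set to missing. The 0.24 of Dll1 mouse 2 in spleen and the 0.03 of wt mouse 2 in liver each rest on the Cy3 array alone.

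**Figure D1:**
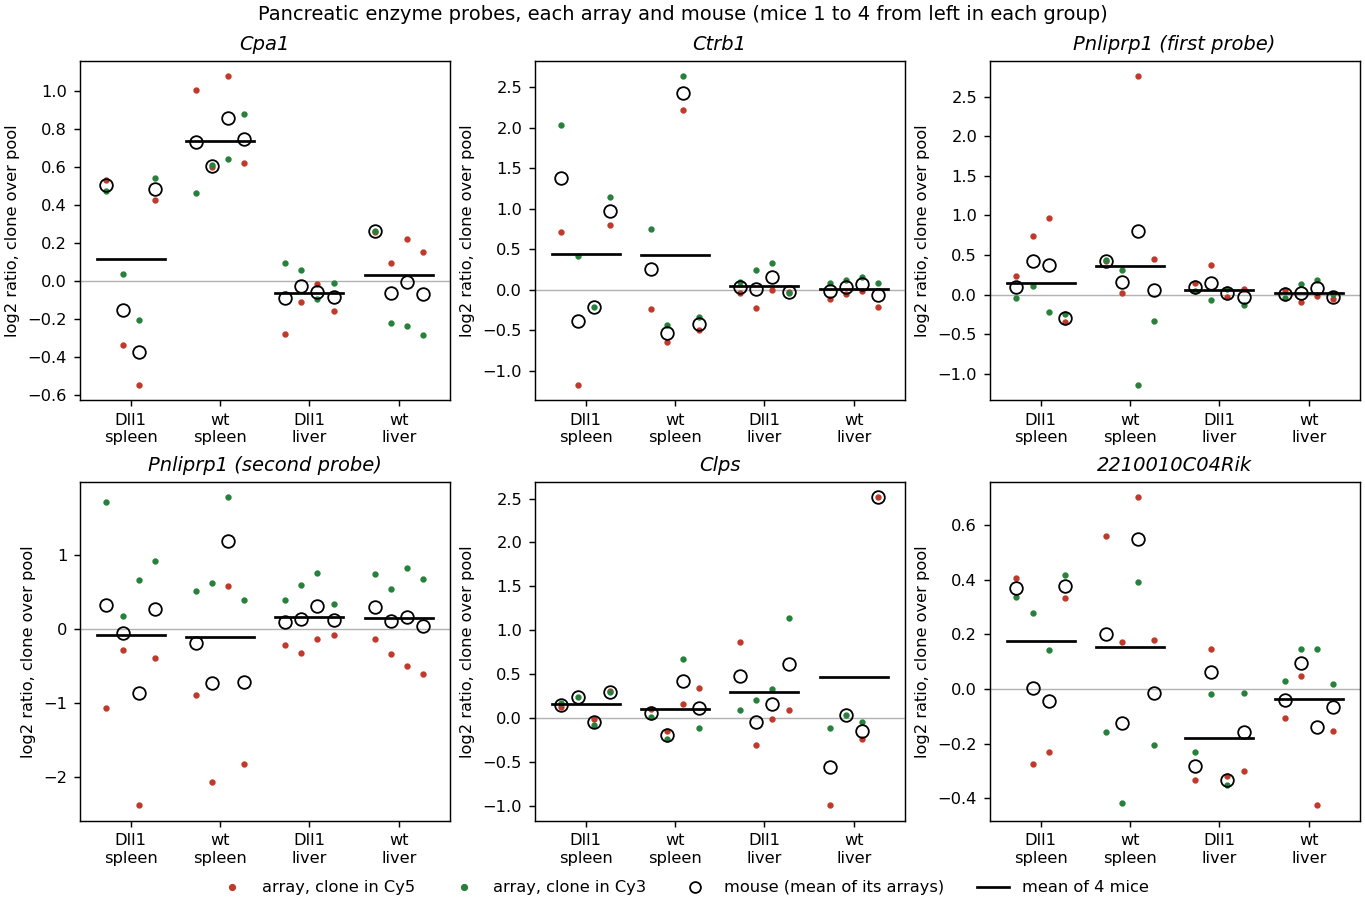
Log2 ratios (vertical axes, clone over pool) of the 5 measured member probes and of the 2210010C04Rik probe in the 4 groups. Small points are single arrays by dye, open circles are mice, and lines are means of 4 mice. Cpa1 lies above 0 on all 8 wt spleen arrays, Ctrb1 is highest in wt mouse 3 with both dyes, and the second Pnliprp1 probe separates by dye in each group.

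The differences between the organs of a mouse, on which the genes were chosen, were uneven among the 4. The Cpa1 ratio was higher in spleen than in liver in 4 of 4 wt mice, by 0.47 to 0.87, and in 2 of 4 Dll1 mice. Once the Cy3 arrays were turned it was higher in 1 of 4 wt mice, with a mean difference of -0.062 ± 0.26 (SD, n = 4), and in 2 of 4 Dll1 mice, with a mean of -0.020. Ctrb1 was higher in spleen in 2 of 4 mice of each cohort, with 2.35 in wt mouse 3, 1.34 in Dll1 mouse 1 and 1.0035 in Dll1 mouse 4. Turned, it was higher in 1 of 4 mice of each cohort, with means of -0.24 in Dll1 and -0.12 in wt clones. No member had all Dll1 spleens above all Dll1 livers, as 4.28% of features did. Pnliprp1 averaged -0.077 ± 0.24 (SD, n = 4) in Dll1 and 0.039 ± 0.57 in wt mice. Clps averaged -0.14 ± 0.29 in Dll1 and -0.36 ± 1.41 in wt mice. Turned means were -0.21 and 0.10 for Pnliprp1 and 0.087 and -0.47 for Clps.

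The mean spleen ratio lay above 0 for 4 of 4 genes in both cohorts, against 50.7% of features in Dll1 spleen and 52.7% in wt spleen. Liver was similar, with 3 of 4 above 0 in Dll1 and 4 of 4 in wt livers. With the Cy3 arrays turned, 0 of 4 were above 0 in Dll1 spleen and 2 of 4 in wt spleen. As deposited and with probes averaged by gene, Cpa1 alone was above 0 in each of 4 wt spleens, as 8.9% of features were. No member was above 0 in all 4 Dll1 spleens, as 8.3% of features were. As background only, since this contrast chose the genes, spleen and liver differed past the threshold for 0.0413% of all features in the Dll1 clones and 0% in the wt clones, and 0.0705% of features in wt liver differed from the pool. Cohort differences in liver did not pass the test for any of the 4 genes (limma adjusted p = 0.935 to 0.978). None of 17020 features passed there (0%), and 829 fell under 0.05 before adjustment.

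By gene, apart from Cpa1 in the wt clones, single mice rather than a cohort were high. The first Pnliprp1 probe, taken by itself, was also above 0 in each of 4 wt spleens, from 0.0595 to 0.81. The next question was whether the probes ranked the same spleens as high. These relations are described without a test, since spleen values chose the genes. Over 8 spleens Ctrb1 and the second Pnliprp1 probe had a Pearson r of 0.926 (Spearman rho 0.810), 0.926 with each cohort centred, 0.753 without the 2 spleens farthest from the median of Ctrb1, and 0.83 without wt mouse 3. The second Pnliprp1 probe and Clps had an r of 0.847 (rho 0.881), 0.711 without the 2 farthest spleens and 0.752 without wt mouse 3. Ctrb1 and Clps had an r of 0.717 (rho 0.690), 0.580 without the 2 farthest spleens and 0.505 without wt mouse 3. Cpa1 followed Ctrb1 less closely, with an r of 0.435 (rho 0.167) over all 8 spleens and 0.652 with each cohort centred. It was 0.150 without the 2 farthest spleens, and without wt mouse 3 it was 0.231 (rho -0.25), or 0.894 with each cohort centred. Turning the Cy3 arrays changed the sign of 3 of these 4 relations: the r of Ctrb1 was then -0.530 with the second Pnliprp1 probe and -0.186 with Cpa1, and that of the second Pnliprp1 probe with Clps was -0.610. Ctrb1 and Clps kept an r of 0.465 (rho 0.548).

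The first Pnliprp1 probe followed the second one only loosely over all 8 spleens (r = 0.332, rho = 0.143). Its r with Ctrb1 was 0.276 and turned to -0.494 without wt mouse 3. Without Dll1 mice 2 and 3 the r was 0.467 with the second probe and 0.447 with Ctrb1, or 0.888 and 0.914 with each cohort centred, so a few mice set these values. The other 4 member probes, one of them with a large dye offset as deposited, lie within 46 rows of the table. Of the other 38 rows in that stretch measured in all 8 spleens, 2 had an r of at least 0.7 with Ctrb1 after centring each cohort, and their median r was 0.0973. Over all rows the median was 0.00958 and 4.29% had an r of at least 0.7.

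As deposited, agreement between the arrays of a mouse was highest for the 2 proteases among the member probes. Turning the Cy3 arrays changes the sign of every r in this paragraph, and the first Pnliprp1 probe would then be highest. For Ctrb1 the Cy5 and Cy3 ratios of 7 spleens had an r of 0.874 (rho 0.857), 0.768 without the 2 spleens farthest from the median and 0.757 without wt mouse 3. For Cpa1 the r over 8 spleens was 0.843 (rho 0.690), but -0.0617 without the 2 farthest spleens, so it rested on those. Clps had an r of 0.410 and the second Pnliprp1 probe an r of 0.438, while the first Pnliprp1 probe had an r of -0.754. The median over all probes was 0.0148. Both arrays of a mouse share its RNA, so this is technical repeatability and not a repeat of the animal.

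**Figure D2:**
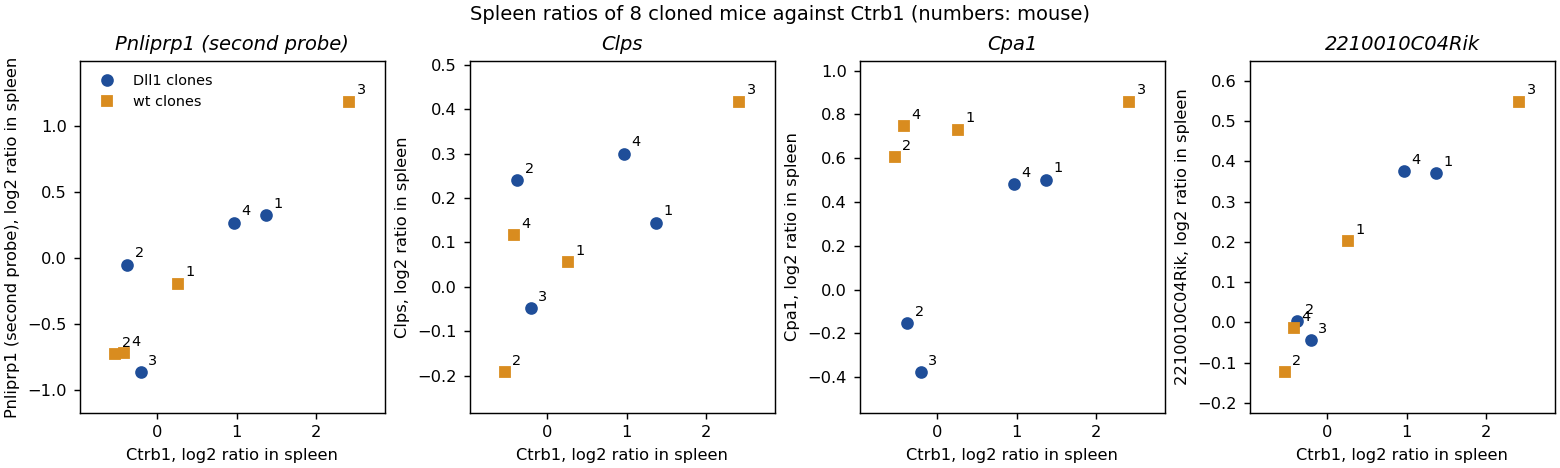
Log2 ratios in 8 cloned spleens of the second Pnliprp1 probe, Clps, Cpa1 and 2210010C04Rik (vertical axes) against Ctrb1 (horizontal axes), circles for Dll1 and squares for wt clones, with the mouse number. Wt mouse 3 lies at the upper right in each panel, and Cpa1 is above 0.5 in all wt spleens whatever Ctrb1 reads.

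A search of 8727 named genes measured in all 8 spleens gave those whose pattern was most like the mean of the 4 members, with each cohort centred. The member mean follows Ctrb1 (r = 0.986), which has the widest range. The most similar gene outside the members was 2210010C04Rik, a trypsin gene of the mouse pancreas known by its clone name, at r = 0.979. Its ratio was 0.37, 0.003, -0.0445 and 0.38 in Dll1 spleens and 0.20, -0.12, 0.55 and -0.0135 in wt spleens. It was picked for likeness to the member mean, which follows Ctrb1, so its own likeness to Ctrb1 is no separate evidence. Its high spleens, Dll1 mice 1 and 4 and wt mouse 3, follow from the same choice. Both arrays of each of these 3 mice were above 0, from 0.33 to 0.70. Its probe lies outside that stretch of the table, and its r with the Ctrb1 probe, with cohorts centred, was 0.968, or 0.959 without wt mouse 3 and -0.147 with the Cy3 arrays turned. In likeness to the Ctrb1 probe alone it ranked 4 of 12141 named probes, after Ap2m1 (0.977), Mark2 (0.969) and Ndst2 (0.968).

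The next genes in likeness were Ap2m1 at 0.967, Actr3 at 0.959, Ndst2 at 0.957, E4f1 at 0.951, Kat6b at 0.940, Blmh at 0.939, Dio2 at 0.935, BC031181 at 0.935 and Polr2g at 0.929. These include broadly expressed genes, such as the clathrin adaptor subunit Ap2m1 and the actin nucleator subunit Actr3, and are not acinar enzymes. Without wt mouse 3, 2210010C04Rik ranked 5 of 8778 named genes at 0.978 and Ap2m1 ranked 47 at 0.927.

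No feature passed the test against the pool in either spleen cohort, so none of the listed acinar genes did. Of 45 listed acinar genes outside the members, 18 were measured. In either spleen cohort 0 of these passed the test (limma, 0% of 16956 features called in each). At an unadjusted limma p under 0.05 were 2 of the 18 in Dll1 spleen and 0 in wt spleen. Among all 16956 features, 1692 in Dll1 spleen and 577 in wt spleen were. The median ratio of the 18 genes was -0.05 in Dll1 spleen, with 8 of 18 above 0, and 0.03 in wt spleen, with 9 of 18 above 0. The medians over all features were 0.0057 and 0.011. Turning the Cy3 arrays gave list medians of -0.072 and -0.00075. In wt mouse 3 alone, 12 of 17 measured genes were above 0, with a median of 0.18. The medians of the other spleens lay between -0.14 in Dll1 mouse 3 and 0.095 in Dll1 mouse 1. A raised median in wt mouse 3 was not particular to acinar genes. Among the lists of other cells described below, its medians were 0.41 for stomach, 0.33 for islet, 0.18 for leukocyte, 0.11 for hepatocyte and 0.067 for fat genes. They were -0.085 for duct, -0.095 for mesothelial and -0.50 for erythroid genes.

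Among the proteases of that list, Ctrl, a chymotrypsin-like enzyme, was 0.42 in wt mouse 3 and 0.12 in Dll1 mouse 1, and the other spleens ranged from -0.29 to 0.22. Its r with the member mean was 0.768. The elastases went other ways: Cela2a was 0.34 in wt mouse 3 but -0.59 in Dll1 mouse 1, and Cela3b was -1.01 in wt mouse 3 and -1.05 in Dll1 mouse 1. Among the lipolytic enzymes, Pnliprp2 was 1.29 in Dll1 mouse 1 and 0.39 in wt mouse 3, while the phospholipase Pla2g1b was 0.38 and -0.063 there. The trypsin inhibitor Spink1 was 0.75 in wt mouse 3 and 0.43 in Dll1 mouse 4 but -0.43 in Dll1 mouse 1, and the water channel Aqp8 was 1.19 in wt mouse 3 and negative in Dll1 mouse 1.

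The genes of the list did not all follow the member mean. After Ctrl, the r with it was highest for Zg16 (0.630), Pnliprp2 (0.627), Aqp8 (0.627) and Dmbt1 (0.624). It was below 0 for Cela3b (-0.758), Nr5a2 (-0.715), Cuzd1 (-0.218), Gp2 (-0.138) and Pla2g1b (-0.068). Rnase1 had no r, since a spleen value was missing. These values are a description without a test. Means in the Dll1 spleens ran from -0.46 (Cela3b) to 0.84 (Rnase1, the pancreatic ribonuclease) and in the wt spleens from -0.30 (Sycn, a zymogen granule protein) to 0.32 (Gp2, the main membrane protein of those granules). Zg16, Klk1, Cuzd1, Dmbt1, Erp27 and Sel1l lay within these limits. So did the transcription factors Rbpjl, a subunit of PTF1, and Nr5a2, which was -1.24 in wt mouse 3.

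**Figure D3:**
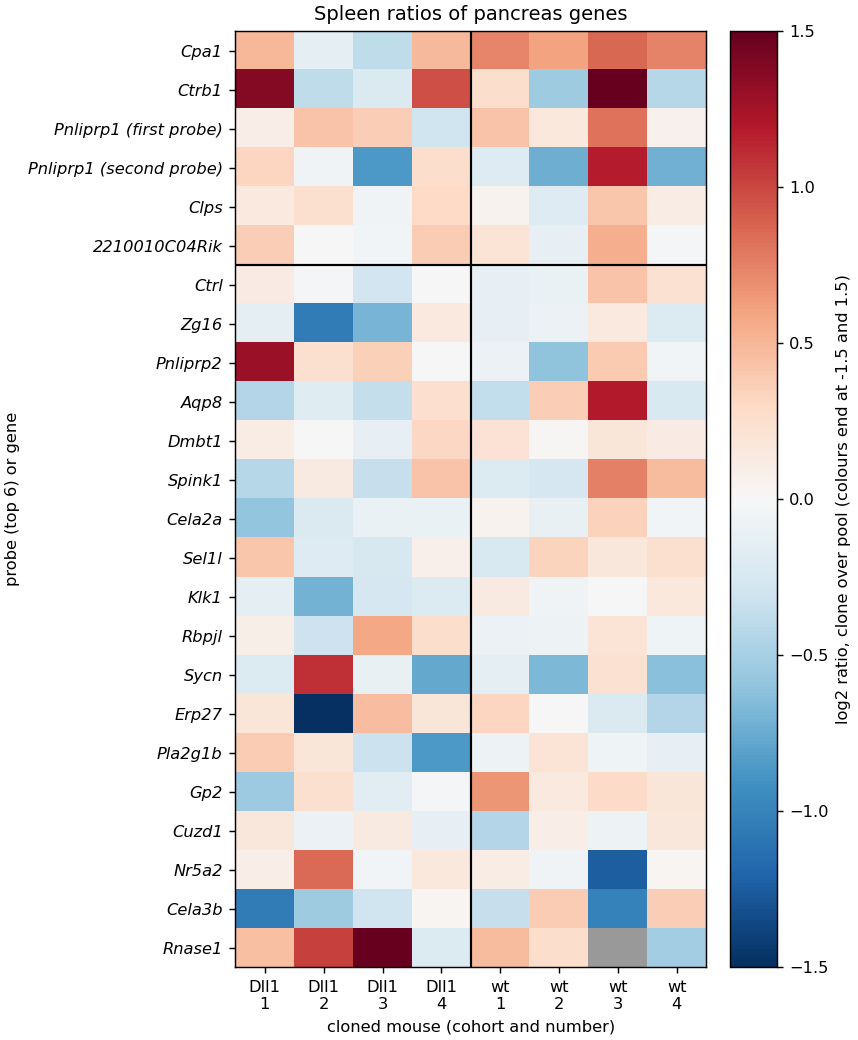
Log2 ratios (colour, clone over pool, ending at -1.5 and 1.5) in 8 cloned spleens (columns). The upper rows hold the 5 member probes and 2210010C04Rik, and the lower rows hold 18 other acinar genes in the order of their likeness to the member mean, with grey for a missing value. Wt mouse 3 and Dll1 mouse 1 are positive in all 6 upper rows, and in the lower rows 12 of 17 and 10 of 18 genes are above 0 in them. The members were chosen with spleen ratios and 2210010C04Rik for likeness to their mean, so the upper rows are no separate evidence. The share of all features above 0 in these mice is not given here.

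Markers of other cells that could accompany pancreas or spleen were also read. Of 22 islet genes 7 were measured, with medians of 0.001 in Dll1 spleen and 0.08 in wt spleen. The glucagon gene Gcg was 0.16, 2.93 and -1.15 in the spleens of wt mice 1, 2 and 4 and averaged -0.41 over 3 Dll1 spleens. It was missing in the spleen of mouse 3 in both cohorts, and so in the wt spleen with the highest Ctrb1. Of 14 duct genes 10 were measured (medians -0.056 and 0.045), of 12 fat genes 9 (0.15 and 0.057), of 10 stomach genes 2 (0.017 and 0.14) and of 6 mesothelial genes 2 (0.19 and -0.015). Adipoq, the fat cell hormone adiponectin, was looked at after its values were seen, because it was above 0 in 4 of 4 wt spleens as Cpa1 was. It was 0.75, 2.88, 0.75 and 0.94 in wt spleens (SE of the mean 0.49, unadjusted p = 0.0247, adjusted p = 0.99991) and -0.28, 2.10, -0.13 and -0.61 in Dll1 spleens, where the mice with high Cpa1, 1 and 4, were below 0. The value of mouse 2 rests on its Cy3 array alone in both cohorts. The mean in wt spleen was 1.33, or -0.49 with the Cy3 arrays turned, and 8 of 9 fat genes lay above 0 there. The part of fat in the Cpa1 ratio was not tested.

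The 11 measured hepatocyte genes of 17 had medians of -0.066 and 0.081. As deposited, the largest medians in size were those of spleen cells: 11 measured leukocyte genes of 17 had medians of 0.38 in Dll1 spleen and 0.18 in wt spleen, and 5 measured erythroid genes of 12 had medians of -0.71 and -0.64, below 0 for all 5 in both cohorts. That order did not hold with the Cy3 arrays turned, where the medians were 0.11 and 0.16 for leukocyte genes and 0.044 and 0.20 for erythroid genes, and fat genes had -0.25 in Dll1 spleen and stomach genes 0.28 in wt spleen. No gene of these lists passed the test in either spleen cohort (limma, 0% of features called). An unadjusted limma p under 0.05 was found for 5 erythroid, 6 leukocyte and 1 duct gene in Dll1 spleen. In wt spleen it was found for 3, 5 and 1 of these beside Adipoq. Among all 16956 features, 1692 in Dll1 spleen and 577 in wt spleen had such a p. The part of cell composition in the member ratios was not tested.

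The sequences before the start sites are shown for the 3 measured members that RefSeq's promoter table for GRCm38.p6 holds, because these genes are thought to share acinar control. Each line gives 250 bases up to the start of transcription, read 5′ to 3′ on the gene's strand, for Cpa1 at chr6:30638968-30639217 (plus strand), Ctrb1 at chr8:111691011-111691260 (minus strand) and Pnliprp1 at chr19:58728637-58728886 (plus strand). Capitals mark the box TTTTCCC with the E-box in front of it.
Cpa1: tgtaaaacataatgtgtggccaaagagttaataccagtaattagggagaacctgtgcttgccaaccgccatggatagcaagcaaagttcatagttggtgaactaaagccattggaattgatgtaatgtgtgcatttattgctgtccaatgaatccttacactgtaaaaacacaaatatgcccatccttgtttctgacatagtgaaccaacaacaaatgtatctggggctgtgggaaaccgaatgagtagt
Ctrb1: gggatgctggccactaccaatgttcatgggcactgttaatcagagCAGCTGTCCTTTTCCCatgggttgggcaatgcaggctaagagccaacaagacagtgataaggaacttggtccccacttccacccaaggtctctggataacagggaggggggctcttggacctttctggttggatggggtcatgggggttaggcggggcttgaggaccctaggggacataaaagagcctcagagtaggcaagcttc
Pnliprp1: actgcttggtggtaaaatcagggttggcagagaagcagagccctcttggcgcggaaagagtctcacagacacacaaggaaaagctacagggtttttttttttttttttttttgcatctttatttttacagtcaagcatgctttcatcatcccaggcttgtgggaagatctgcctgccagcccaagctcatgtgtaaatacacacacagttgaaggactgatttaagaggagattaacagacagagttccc

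The table held 6 of the 7 genes. The motif searched was the E-box CANNTG followed, after any 3 bases, by the box TTTTCCC. It is modelled on the textbook PTF1 site, was chosen after these sequences had been read, and was sought on both strands. It was present once before Ctrb1, 205 to 190 bases upstream of the start, and once before Cela1, as CACCTGCGCTTTTCCC at 109 to 94 bases. Among all 32851 promoter entries 11 held it (0.0335%). The box TTTTCCC alone, which is part of the longer motif, was present before 3 of the 6 genes (Cel, Ctrb1 and Cela1) and in 6.49% of entries, and CANNTG alone before 5 of 6 and in 66.2% of entries. The motif TATAAA was present before Cela1 and Pnlip and in 12.4% of entries. These matches describe the letters in this window, and Pnliprp1 and Cpa1 hold no match to the longer motif in it.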

How the data were processed

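The authors deposited 1 log2 ratio per probe and array; scanner data were not used here. Its normalization, centring and direction were not stated, and clone over pool was read from the titles, which name the clone first. Row names were taken from the platform probe 11 rows earlier. Ratios of probes of the same gene correlated at a mean r of 0.0268 under that offset, against at most 0.0197 under the other offsets tried, which is a small margin. Values over 9 in size, 1183 in all, were constants and were set to missing. The arrays of a mouse were averaged, then the probes of a gene, giving 17060 features. Features measured in at least 3 mice per cohort were fitted by organ with limma 3.58.1 in R 4.3.3 (lmFit, eBayes, Benjamini-Hochberg), with a call at an adjusted p under 0.05. Calls were checked on simulated data, in which the comparison of spleen with liver without a mouse block also called unchanged features where the spread differed between organs. Correlations used scipy 1.17.1. The precision is limited by 4 mice per group and by the spread between mice, which was wider in spleen. In simulated data, a Dll1 minus wt change of 1 was recovered for 11% of changed features in spleen and 95% in liver. Named were all members, all measured genes of the acinar list, the 2 genes of every other list with the largest mean in size in the spleen cohort where that list's median was largest in size, and the 10 genes most like the member mean; of the genes of the other lists only Gcg is printed, and Adipoq outside this rule. Members and lists were chosen with earlier results of these data known. Alternatives were other centring, scale, direction, thresholds, names, probes, filters, fits and left-out mice. Alternatives without wt mouse 3, and without Dll1 mice 2 and 3, were added after seeing the data. Dll1 mice 2 and 3 had the most missing spleen values of their cohort, though mouse 1, which was kept, was close to mouse 2. Liver and spleen of a cohort come from the same mice by label, so the mouse was a replicate block in an alternative fit of spleen minus liver.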

Additional observations from a re-analysis of the deposited data

How the results depend on the processing

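None of the 4 genes passed the test of Dll1 against wt clones in spleen under any of the alternatives run. In liver the difference of Cpa1 passed with the Cy3 arrays turned (adjusted p = 0.0321), where 6855 of 17020 features did, and no other cohort difference of a member passed. With the Cy3 arrays turned, features past the threshold numbered 740 for Dll1 spleen over pool, 161 for wt spleen, 772 for Dll1 liver, 9167 for wt liver, 586 and 2069 for spleen minus liver in Dll1 and wt clones, and 6855 for Dll1 minus wt in liver. The median of the members was then -0.22 in Dll1 spleen, -0.09 in wt spleen and -0.13 in Dll1 liver, against 0.14, 0.28 and 0.076 as deposited. With names as given, without the offset of rows, other probes stand for the members: their median was -0.31 in Dll1 spleen, -0.049 in Dll1 liver, -0.056 in wt liver and -0.39 for spleen minus liver in Dll1, and 7 features passed for spleen minus liver in wt.

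Fits that treated arrays or organs otherwise gave other counts over all features. A fit of single arrays, with mouse as a random term and dye as a factor, gave 1 for Dll1 spleen, 8 for wt spleen, 12 for Dll1 liver, 53 for wt liver, and 55 and 38 for spleen minus liver in Dll1 and wt. Both organs in 1 fit gave 952 for Dll1 spleen, 62 for wt spleen, 0 for wt liver and 56 for Dll1 minus wt in spleen, with no member among the 56. Spleen minus liver in Dll1 gave 1 with scaled arrays, 3 with centred arrays, 3 with the best-measured probe only, 13 with both orientations required, and 0 in the paired fit with the mouse as replicate block, against 7 without; the wt clones had 0 both ways. Spleen minus liver in wt gave 3 with both orientations required and 3 with large values kept. Wt liver over pool gave 0 with scaled arrays and 0 with large values kept, against 12. The median of the members in wt liver was 0.017 with both orientations required and 0.017 with large values kept. The cause of these changes was not tested.

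Leaving out each mouse in turn gave 0 to 72 features for spleen minus liver in Dll1 (72 without Dll1 mouse 4), 0 to 3 for wt, 0 to 19 for wt liver over pool, and 0 to 1 for Dll1 liver. Over the same fits the median of the members ran from 0.055 to 0.25 in Dll1 spleen and from -0.086 to 0.51 in wt spleen. With 4 mice a group and pools not replicated, a difference shared by all clones of a cohort cannot be told apart from a difference of its pool.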
